A study of Mus musculus with 8 samples.

Results

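Carboxylesterases are serine hydrolases of the endoplasmic reticulum and of plasma that split ester bonds in drugs, in other foreign compounds and in lipids. In rodent liver the Ces1 and Ces2 subfamilies have expanded into clusters of neighbouring copies, and several of their enzymes release fatty acids from stored triglyceride or diglyceride, which feeds the assembly of very low density lipoprotein (VLDL). The 10 genes described here are Ces1b, Ces1c, Ces1d, Ces1e, Ces1f, Ces1g, Ces2a, Ces2c, Ces2e and Ces2g, matched by symbol among 35638 genes of the table. They were picked from 20 Ces genes with their values in KO and WT livers already known. Their change between those groups is therefore given as a description, and the values that chose them support nothing by themselves. All 10 members reached a mean of 1 FPKM (fragments counted per kilobase of transcript and scaled to the size of the library) over the 8 libraries, as did 11266 genes of the table, and only such genes entered the comparison.

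Frozen livers were taken at postnatal day 90 from mice on a mixed C57/B6 and 129 background. The KO group (4 libraries) had the genotype Arid1a Fl/Fl with Alb-cre, in which the albumin promoter drives Cre recombinase in hepatocytes and removes Arid1a, which encodes a subunit of SWI/SNF chromatin remodellers. The WT group (4 libraries) had Arid1a Fl/Fl without Alb-cre, so both groups carry the floxed alleles, and the transgene itself cannot be told apart from the loss of Arid1a. Whether Arid1a is kept in other cells of the liver cannot be read from whole tissue. No label states that each library is a different animal; p-values therefore reflect sample-to-sample spread, part of which may be technical.

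The steps between low FPKM values put the depth at about 13800000 to 15300000 fragments in KO libraries and at about 12500000 to 13600000 in WT libraries. Arid1a was at 2.70, 2.86, 3.46 and 2.59 FPKM in KO 1 to KO 4, against 5.16, 8.38, 3.998 and 4.10 FPKM in WT 1 to WT 4, with no overlap (exact two-sided permutation test, p = 0.0286, the smallest that 70 splits allow). In limma's fit over all genes it did not pass (adjusted p = 0.316). WT 4 stood high of its group in 4.16% of the tested genes, more than any other library, followed by KO 4 at 2.86%. Genes of hepatocytes dominated both groups, with 8 markers such as Alb and Apoa1 summing to between 31710.2 and 47375 FPKM in KO libraries and between 28572 and 40439.7 FPKM in WT libraries, and 7 of these 8 had the higher mean in KO. Most markers of other cell types had higher means in KO too. The 11 macrophage markers summed to 17.8 to 140 FPKM in KO libraries against 6.26 to 12.4 FPKM in WT libraries, and all 11 had the higher mean in KO. All 8 endothelial markers (12.4 to 24.998 FPKM in KO, 2.06 to 7.47 FPKM in WT) and all 10 stellate and fibroblast markers (11.6 to 28.0 FPKM in KO, 2.60 to 7.20 FPKM in WT) did so too. KO 2 held the lowest KO sum of the macrophage markers and of the endothelial markers. The macrophage marker Clec4f, for example, was at 3.79 FPKM in KO 2 and at 17.0 to 31.4 FPKM in the other KO libraries. Bile duct markers (6 genes, 5 with the higher mean in KO) summed to 0.527 to 6.84 FPKM in KO and 0.269 to 0.792 FPKM in WT. Spp1 alone was at 0.512 to 6.72 FPKM in KO and 0 to 0.658 FPKM in WT. Sox9 was lower in KO, at 0.0157 to 0.123 FPKM against 0.134 to 0.462 FPKM in WT. Each other bile duct marker was at 0.11 FPKM or less in all libraries. Lymphocyte markers (8 genes, 7 with the higher mean in KO) summed to 0.405 to 1.37 FPKM in KO and 0.0161 to 0.354 FPKM in WT. Of these, Ptprc was at 0.127 to 1.07 FPKM in KO and 0.0161 to 0.290 FPKM in WT. Each other lymphocyte marker was at 0 in most libraries, and 0 of the 8 were abundant enough to test. Of 7 markers of intestine and kidney, which also express Ces genes, Umod and Aqp2 were at 0 in all libraries. The sum of the 7 was 10.5 to 25.1 FPKM in KO and 10.5 to 21.2 FPKM in WT. Nearly all of this sum was Fabp2 in each library, and each other marker of this list was at 0.0709 FPKM or less. Of 28 marker genes tested over all lists 0 passed limma's adjusted threshold and 19 had an unadjusted p under 0.05, none of them a hepatocyte marker; over all tested genes the unadjusted share was 9.81%. The part of these other cells in the values below was not tested. In whole tissue, fewer cells of a type and less RNA per cell cannot be told apart.

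Ces1f and Ces2g were far lower in KO livers, while the most abundant members, Ces1c and Ces1d, differed by less than the spread between libraries. The 10 members together summed to 1159 ± 289 FPKM in KO libraries and 1297 ± 173 FPKM in WT libraries (SD, n = 4 each), and the groups overlapped. Of the members, 8 had a lower and 2 a higher fitted mean in KO, with a median change of -0.35 on the log2(FPKM + 1) scale against -0.03 over all tested genes. Ces1f and Ces2g were the 2 members past an adjusted p of 0.05 in limma's fit over all genes (Benjamini-Hochberg), a threshold that 0.763% of the tested genes passed, and both were lower, as 0.355% of the tested genes were. Since the members were picked with this contrast known, nothing is read from that count.

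**Figure D1:**
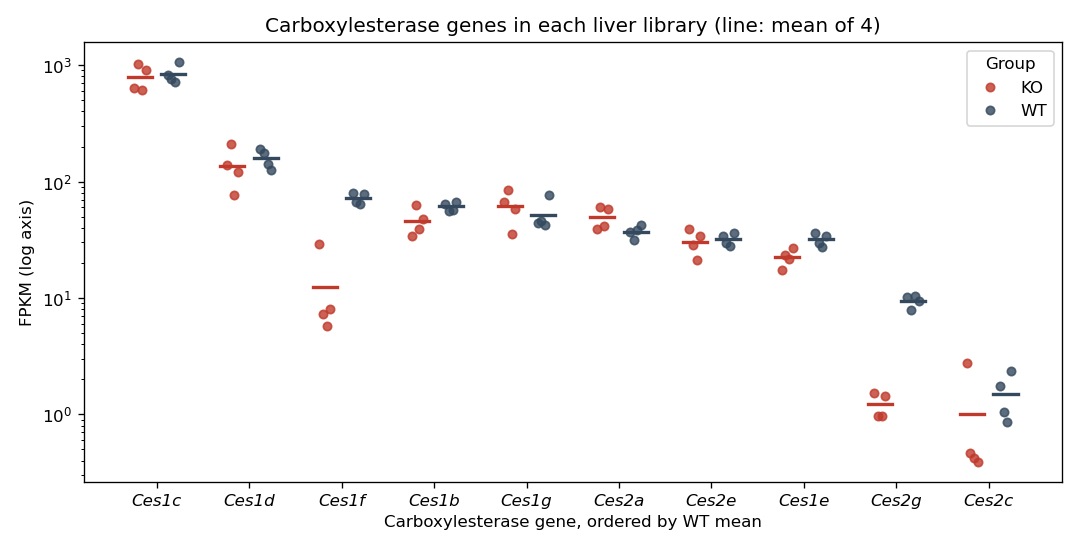
FPKM of the 10 carboxylesterase genes (log axis) in each KO and WT library, with a line at the mean of 4 libraries. Ces1f and Ces2g separate the groups widely, Ces1e narrowly, and the other genes overlap, with KO 1 above the other KO libraries for Ces1f and Ces2c.

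Ces1f, which encodes an enzyme with triglyceride hydrolase activity, lies on the minus strand of chromosome 8 (ENSMUSG00000031725, 93256236 to 93279747, GRCm38). It was at 28.8, 7.25, 5.79 and 8.10 FPKM in KO 1 to KO 4, against 79.2, 66.3, 64.7 and 78.9 FPKM in WT 1 to WT 4. All KO values were under the lowest WT value, but KO 1 held over 3 times the level of each other KO library. The means were 12.5 ± 10.9 FPKM in KO and 72.3 ± 7.86 FPKM in WT (SD, n = 4 each), so KO livers had 17.3% of the WT level. On the log2(FPKM + 1) scale, which understates changes of low genes, the change was -2.72 ± 0.41 (SE, limma adjusted p = 0.0188). Its place past the threshold depended on the libraries used. Without KO 1 the change was -3.19 with a limma adjusted p of 3.81e-04, whereas 6 of the 8 fits that left out a library put it above the threshold, at up to 0.0678, as did the fit with no filter on low genes (0.0863). Arid1a was at 2.70 FPKM in KO 1, within the range of the other KO libraries. In WT livers Ces1f was the third most abundant member, and in KO livers it was the eighth. It supplied 3.13, 0.510, 0.731 and 0.692% of the FPKM summed over the 6 Ces1 members in KO 1 to KO 4, against 6.402, 5.82, 6.16 and 5.48% in WT 1 to WT 4. This share does not depend on how a library is scaled, and it separated the groups without overlap.

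Ces2g, a member of the Ces2 subfamily (ENSMUSG00000031877, plus strand, 104961718 to 104969537), was at 1.53, 0.967, 0.969 and 1.44 FPKM in KO 1 to KO 4, against 10.1, 7.92, 10.3 and 9.36 FPKM in WT 1 to WT 4. The 4 KO libraries were close to each other and far under the lowest WT library. KO livers averaged 1.23 ± 0.300 FPKM and WT livers 9.42 ± 1.08 FPKM (SD, n = 4 each), so KO livers had 13.02% of the WT level. The log2 change was -2.23 ± 0.17 (SE, limma adjusted p = 6.54e-04), and it stayed past the threshold in all 19 alternative fits, with a limma adjusted p between 4.98e-04 and 0.0210. At the estimated depth and transcript length the KO values stand for about 38.3 to 61.0 fragments per library and the WT values for about 306 to 400.5. Its share of the FPKM summed over the 4 Ces2 members was 1.85, 1.08, 1.51 and 1.55% in KO 1 to KO 4, against 12.2, 11.4, 13.3 and 10.4% in WT 1 to WT 4.

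**Figure D2:**
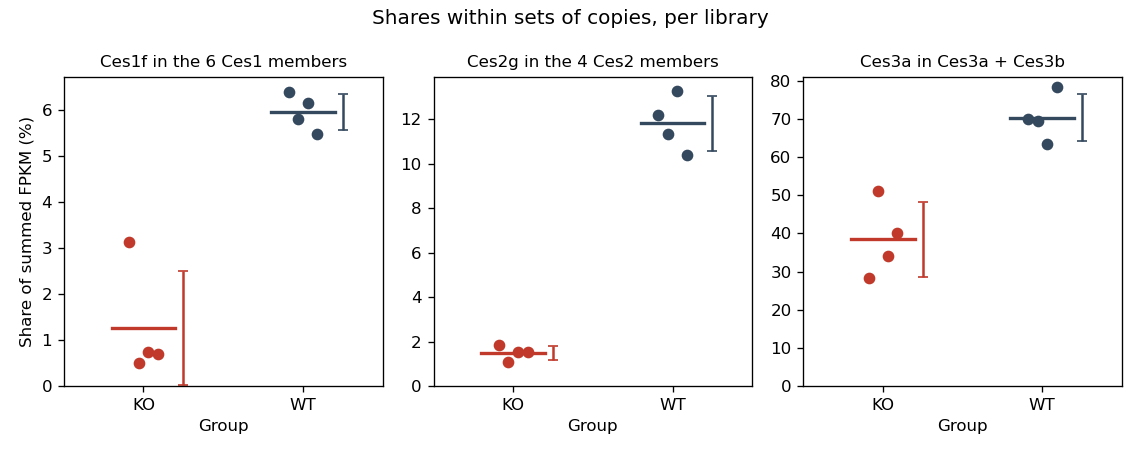
Percentage of summed FPKM that Ces1f supplied among 6 Ces1 genes, Ces2g among 4 Ces2 genes, and Ces3a among Ces3a and Ces3b, in each KO and WT library (points), with group means (lines) and SD (bars). All 3 shares were lower in every KO library than in every WT library, and KO 1 was the highest KO library for Ces1f. Ces3a and Ces3b are close copies, so the division between them is uncertain.

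The other Ces1 members carried the bulk of the family. Ces1c, the carboxylesterase that rodent liver secretes into plasma, was the most abundant member in each of the 8 libraries. It was at 635, 1032, 612 and 909 FPKM in KO 1 to KO 4, against 822, 767, 719 and 1056 FPKM in WT 1 to WT 4, with ranges that overlapped. Its log2 change was -0.10, with a 95% interval from -0.60 to 0.41, and it held 74.1 ± 4.17% of the summed Ces1 FPKM in KO and 68.9 ± 3.14% in WT (SD, n = 4 each). Ces1d, a hepatic triglyceride hydrolase that mobilises stored fat for VLDL, was at 139, 211, 77.4 and 120 FPKM in KO 1 to KO 4, against 192, 175, 141 and 126 FPKM in WT 1 to WT 4. KO 2 was above and KO 3 and KO 4 were below all WT libraries, and the change was -0.28 (95% interval -0.94 to 0.37). It was -0.52 without KO 2, -0.18 without WT 1 and -0.04 without KO 3. Ces1g, whose loss in mice alters liver and plasma lipids, was at 66.5, 85.2, 35.8 and 57.7 FPKM in KO 1 to KO 4, against 44.0, 45.4, 42.1 and 76.1 FPKM in WT 1 to WT 4. Within WT the value of WT 4 stood apart, and the change over all libraries was 0.21 (95% interval -0.44 to 0.87). It was 0.41 without WT 4, 0.45 without KO 3, 0.13 without WT 3 and 0.04 without KO 2.

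Ces1e, also called egasyn, anchors beta-glucuronidase in the endoplasmic reticulum. It was at 17.5, 23.5, 21.8 and 27.1 FPKM in KO 1 to KO 4, against 36.0, 29.8, 27.3 and 34.3 FPKM in WT 1 to WT 4. The groups just failed to overlap, which places Ces1e beside Ces1f and Ces2g as 3 of 10 members with every KO library below every WT library; 3.18% of the tested genes showed that order. Its change was -0.49 (95% interval -0.90 to -0.08), and it was not past the threshold over all genes. Ces1b was at 34.0, 62.6, 39.3 and 47.8 FPKM in KO 1 to KO 4, against 64.6, 56.1, 57.0 and 66.6 FPKM in WT 1 to WT 4, and only KO 2 reached into the WT range (change -0.44, 95% interval -0.90 to 0.03). Summed over the 6 Ces1 members the level was 1076 ± 279 FPKM in KO and 1217 ± 166 FPKM in WT (SD, n = 4 each). Without Ces1f the sums were 1064 ± 282 FPKM in KO and 1145 ± 160 FPKM in WT.

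Among Ces2 members, Ces2a, an enzyme with diglyceride and triglyceride hydrolase activity, was at 39.5, 59.97, 41.6 and 57.5 FPKM in KO 1 to KO 4, against 36.7, 31.2, 38.5 and 42.3 FPKM in WT 1 to WT 4. KO 2 and KO 4 lay above all WT libraries, and KO 1 and KO 3 lay within the WT range. The change was 0.39 (95% interval -0.05 to 0.83). Ces2e, which also splits drug and lipid esters, was at 38.9, 28.3, 21.1 and 33.7 FPKM in KO 1 to KO 4, against 34.3, 29.6, 27.9 and 36.0 FPKM in WT 1 to WT 4 (change -0.09, 95% interval -0.56 to 0.38). Ces2c was the lowest member in WT, at 2.75, 0.461, 0.418 and 0.389 FPKM in KO 1 to KO 4, against 1.74, 1.04, 0.856 and 2.37 FPKM in WT 1 to WT 4. KO 2 to KO 4 lay below all WT libraries and KO 1 above them, and the change was -0.42 (95% interval -1.21 to 0.36). Without KO 1 it was -0.77. The 4 Ces2 members summed to 82.4 ± 12.97 FPKM in KO and 80.0 ± 8.52 FPKM in WT (SD, n = 4 each). Without Ces2g the sums were 81.2 ± 12.8 FPKM in KO and 70.6 ± 8.01 FPKM in WT, again with overlap.

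**Figure D3:**
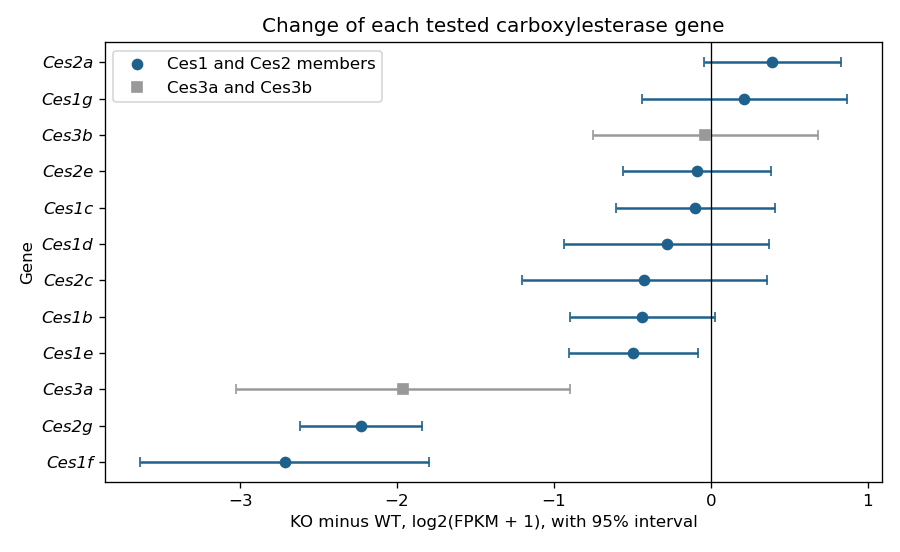
Change in KO minus WT livers on the log2(FPKM + 1) scale with its 95% interval from limma for the 12 carboxylesterase genes tested, members as circles and Ces3a and Ces3b as squares. Ces1f (-2.72), Ces2g (-2.23) and Ces3a (-1.96) lie apart from the other genes, whose changes lie between -0.49 and 0.39.

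In order of level, KO livers had Ces1c first, then Ces1d, Ces1g, Ces2a, Ces1b, Ces2e, Ces1e, Ces1f, Ces2g and Ces2c. WT livers had Ces1c, Ces1d, Ces1f, Ces1b, Ces1g, Ces2a, Ces2e, Ces1e, Ces2g and Ces2c. In KO the ranges of neighbours in this order were separate only between Ces1c and Ces1d and between Ces1f and Ces2g. In WT they were separate between Ces1c and Ces1d, between Ces1d and Ces1f, between Ces1e and Ces2g and between Ces2g and Ces2c. All other neighbours overlapped.

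The table lists 10 more Ces genes, of which Ces3a and Ces3b were abundant enough to test. In limma's fit 0 of them passed the threshold over all genes, and 1 had an unadjusted p under 0.05. Ces3a, a liver carboxylesterase gene (ENSMUSG00000069922, 105048601 to 105058413), was at 21.3, 75.4, 19.3 and 43.7 FPKM in KO 1 to KO 4, against 115, 76.6, 156 and 251 FPKM in WT 1 to WT 4. The highest KO library, KO 2, lay just under the lowest WT library, WT 2. KO averaged 39.9 ± 26.1 FPKM and WT 150 ± 75.1 FPKM (SD, n = 4 each), with a log2 change of -1.96 ± 0.48 (SE, limma adjusted p = 0.129). The adjusted p was 0.0425 without KO 2 and 0.0622 to 0.297 in the other 18 alternative fits. Ces3b was at 57.1 ± 15.2 FPKM in KO and 60.5 ± 24.5 FPKM in WT (change -0.03, limma adjusted p = 0.990). Ces3a supplied 28.3, 51.1, 34.2 and 40.2% of the summed FPKM of this pair of close copies in KO 1 to KO 4, against 69.96, 69.5, 63.4 and 78.4% in WT 1 to WT 4. The pair summed to 75.2, 147, 56.5 and 109 FPKM in KO 1 to KO 4. In WT 1 to WT 4 it summed to 164, 110, 246 and 320 FPKM, so the groups overlapped. How reads were divided between these copies is not known, so the level and share of Ces3a are uncertain. The remaining 8 genes, namely Ces1a, Ces1h, Ces2b, Ces2d-ps, Ces2f, Ces2h, Ces4a and Ces5a, had means under 1 FPKM. Nearest to the filter were Ces1a, at 0.764 ± 0.339 FPKM in KO and 0.767 ± 0.0788 FPKM in WT, and Ces2d-ps, at 0.464 ± 0.491 FPKM in KO and 0.769 ± 0.517 FPKM in WT (SD, n = 4 each). Of the members, Ces2c lay nearest to it, at a mean of 1.253 FPKM over the 8 libraries.

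Close copies can exchange reads, so the sequence shared with other genes was measured on the longest coding transcript of each gene (GENCODE M21). Ces1f shared 1.60% of its 50-base windows with any other annotated gene and 0% of its 100-base windows, and Ces2g shared 3.95% and 0%. Both shared less than Ces1b, Ces1c, Ces2a and Ces2c. The coding sequence nearest to that of Ces1f was Ces1h (79.4% identical bases) and the nearest to that of Ces2g was Ces2b (86.3%). Ces1b and Ces1c were 90.8% identical and shared 11.6 and 17.0% of their 50-base windows with other genes. Ces2c shared 42.2% of its 50-base windows, most with Ces2d-ps, and in each library Ces2d-ps stood at 0.291 to 0.628 times the FPKM of Ces2c. The value of Ces2c is therefore uncertain. Ces2a shared 22.2% of its 50-base windows, most with the pseudogene Gm7208, and Ces3a and Ces3b shared 30.9 and 26.1%. The coding sequences of Ces3a and Ces3b were 95.3% identical, so their separate values are uncertain too. For the other members the share was 1.28 to 3.36%. The sources used here do not give the read length or the treatment of reads with several matches.

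These stretches of 60 coding bases, taken at the middle of each pairwise alignment, are shown as examples of the bases that tell a copy from its nearest relative, with capitals where the members of a pair differ. The pairs differ at 5, 7 and 4 of the 60 bases. One stretch does not stand for the whole coding sequence: Ces1f and Ces1h differ here at fewer bases than Ces2g and Ces2b, while over the whole coding sequence they are less alike (79.4 against 86.3% identical).
Ces1f: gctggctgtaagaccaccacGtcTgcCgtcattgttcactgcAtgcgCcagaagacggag
Ces1h: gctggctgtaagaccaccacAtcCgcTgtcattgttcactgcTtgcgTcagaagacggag
Ces2g: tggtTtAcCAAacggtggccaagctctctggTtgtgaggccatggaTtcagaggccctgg
Ces2b: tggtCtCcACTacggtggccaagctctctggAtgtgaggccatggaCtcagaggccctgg
Ces1b: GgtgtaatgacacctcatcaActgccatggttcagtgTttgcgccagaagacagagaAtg
Ces1c: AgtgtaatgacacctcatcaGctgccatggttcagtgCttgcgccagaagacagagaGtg

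**Figure D4:**
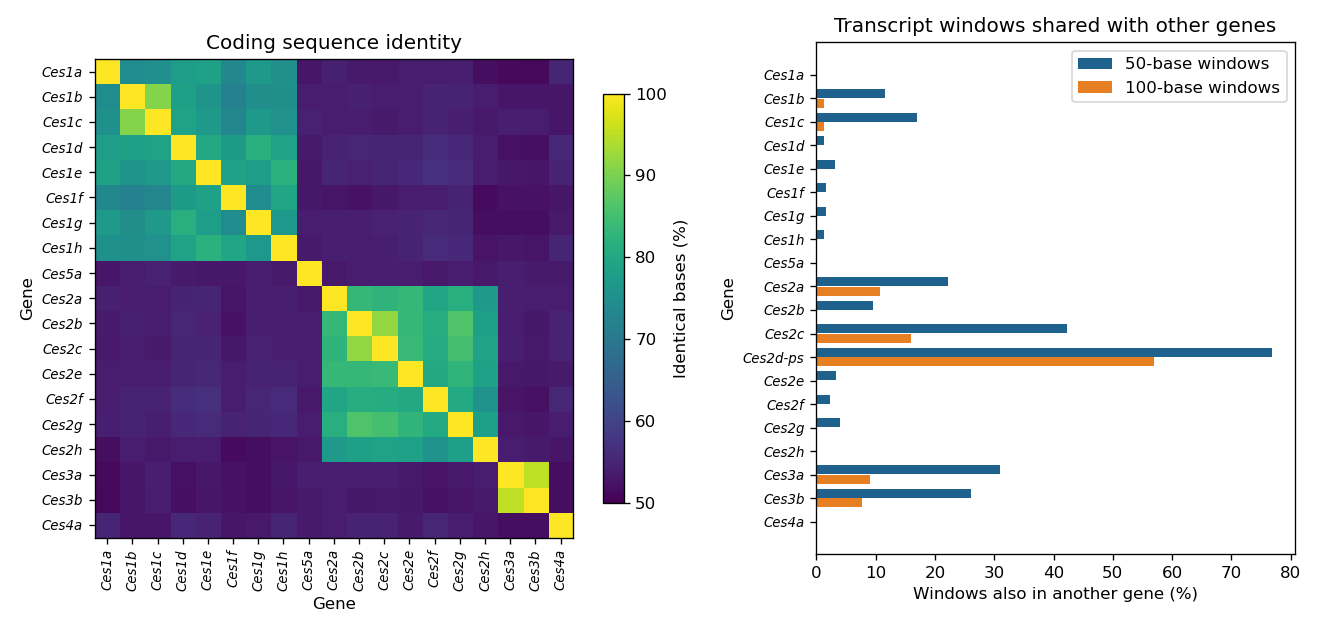
Identity of coding sequences between 19 Ces genes (colour, percent of aligned bases) and the share of 50-base and 100-base transcript windows of each of 20 Ces genes that also occur in another annotated gene (bars). Ces1f (1.60%) and Ces2g (3.95%) share little, while Ces2c (42.2%) and Ces2d-ps (76.9%) share most.

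Ces1f and Ces2g lie in different clusters. The Ces1 cluster, with Ces5a, spans 515.6 kb of chromosome 8 (93020214 to 93535830, all on the minus strand), and the cluster of Ces2, Ces3 and Ces4 genes spans 416.1 kb (104734003 to 105150109, all on the plus strand). Ces1f lies between Ces1e (change -0.49) and Ces1g (change 0.21). Ces2g lies between Ces2f and Ces2h, both under the filter, and its nearest tested Ces neighbours were Ces2e (change -0.09) and Ces3a (change -1.96). Within 500000 bases of the second cluster 19 other genes were tested with limma and 0 passed the threshold over all genes (0 at an unadjusted p under 0.05). Their changes ran from -1.01 to 0.57 with a median of -0.11.

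**Figure D5:**
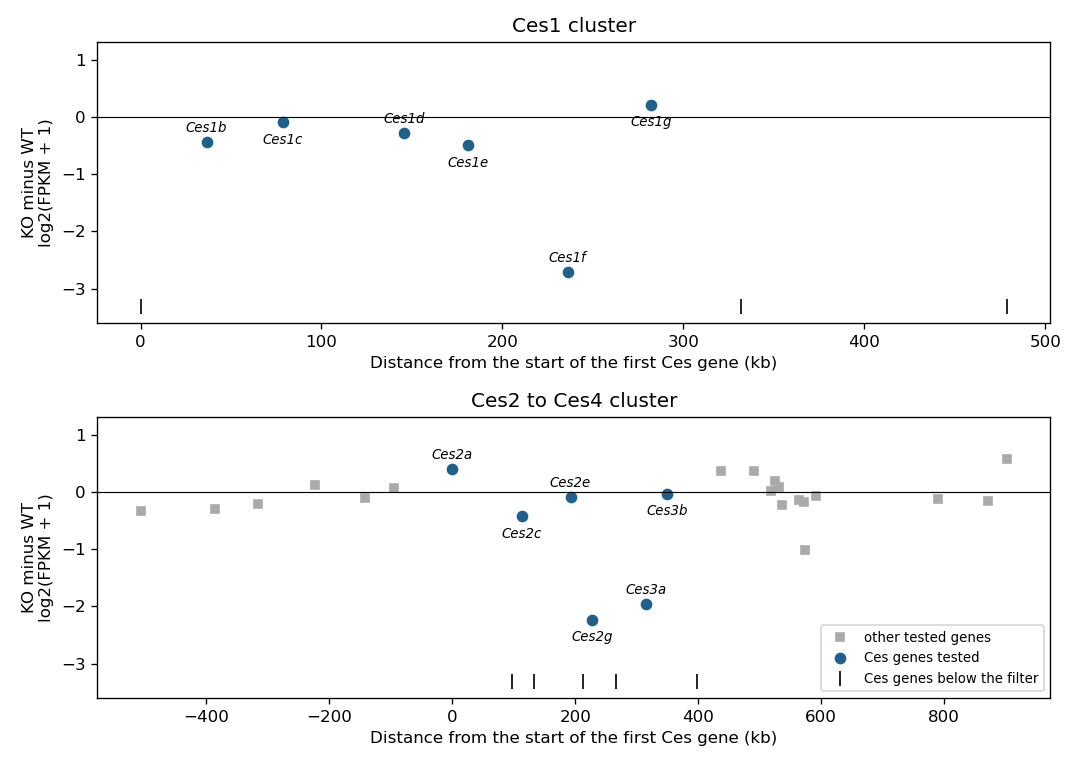
Change in KO minus WT livers on the log2(FPKM + 1) scale for Ces genes (circles) and, in the lower panel, 19 other tested genes within 500000 bases (squares), by distance in kb from the start of the first gene of each cluster. Ticks mark Ces genes under the filter. Ces1f, Ces2g and Ces3a lie below all other genes shown, whose changes run from -1.01 to 0.57.

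Promoter sequences were read from RefSeq (GRCm38.p6) for the 8 members with an entry; Ces1d and Ces1f have none there. Over all 20 Ces genes 15 had an entry. Motifs were searched on both strands in the 250 bases before the start site, some of them chosen after the sequences had been read. The letters GGCAAAGT, part of the sites that HNF4 type nuclear receptors bind, occurred before 4 of 6 Ces2 genes (Ces2a, Ces2e, Ces2f and Ces2g) and 0 of 6 Ces1 genes, against 0.801% of 32851 promoter windows. The letters CAAAGTTC, which overlap them, were found before Ces2a and Ces2e (0.898% of windows). Genes of a subfamily are copies of each other, so these counts are not independent, and nothing is read from them against the shares over all windows. The Ces2 promoters are shown because Ces2g was low in KO while Ces2a and Ces2e were not; capitals mark GGCAAAGT or its reverse complement, which begins at position -70 in Ces2a, -80 in Ces2e and -117 in Ces2g, counted from the start site. Ces2c has no such match in this window. The windows are chr8:104733753-104734002, chr8:104846818-104847067, chr8:104926010-104926259 and chr8:104961468-104961717, all on the plus strand.
Ces2a: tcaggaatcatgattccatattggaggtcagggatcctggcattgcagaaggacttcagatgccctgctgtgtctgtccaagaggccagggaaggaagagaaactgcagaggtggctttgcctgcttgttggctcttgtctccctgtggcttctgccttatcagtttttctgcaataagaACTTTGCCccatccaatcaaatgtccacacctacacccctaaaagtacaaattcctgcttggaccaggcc
Ces2c: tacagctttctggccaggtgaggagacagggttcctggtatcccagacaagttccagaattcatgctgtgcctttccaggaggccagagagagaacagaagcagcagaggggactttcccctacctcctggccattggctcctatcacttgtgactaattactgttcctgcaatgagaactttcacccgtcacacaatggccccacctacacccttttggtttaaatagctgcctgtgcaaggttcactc
Ces2e: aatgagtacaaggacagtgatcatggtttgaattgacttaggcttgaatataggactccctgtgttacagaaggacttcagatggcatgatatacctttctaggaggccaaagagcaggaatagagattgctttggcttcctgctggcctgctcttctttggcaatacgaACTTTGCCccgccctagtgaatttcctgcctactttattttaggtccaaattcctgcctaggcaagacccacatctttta
Ces2g: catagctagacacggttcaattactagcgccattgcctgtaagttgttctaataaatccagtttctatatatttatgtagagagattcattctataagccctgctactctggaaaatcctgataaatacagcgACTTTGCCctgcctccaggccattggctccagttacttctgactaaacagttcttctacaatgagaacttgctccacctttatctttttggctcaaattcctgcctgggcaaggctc

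The letters TTATGTAA, known as the D-box of clock output factors such as DBP, occurred before 5 of 6 Ces1 genes with an entry (Ces1a, Ces1b, Ces1c, Ces1e and Ces1g) and 0 of 6 Ces2 genes, against 0.819% of all windows. For Ces1b this held at one of its RefSeq start sites. The Ces1 genes are copies of each other too, so nothing is read from this count either. The match begins at position -94 in Ces1c, -81 in Ces1e and -232 in Ces1g and is in capitals below. These 3 promoters are shown to set the motif's positions side by side; the RefSeq start of Ces1g lies 99 bases from that in GENCODE. The 9 other motifs searched were an HNF4 type core (CAAAGTCC), the nuclear receptor core (AGGTCA) and its direct repeat with a spacer of 1 base, the TATA box (TATAAA), the HNF1 palindrome and its core (GTTAAT), the CEBP type site (TTGCGCAA), the CCAAT box and the E-box (CACGTG). Each repeat or palindrome contains its core. Of these, the CCAAT box occurred before 4 of 6 Ces1 and 4 of 6 Ces2 genes (33.9% of all windows), the nuclear receptor core before Ces2a and Ces2h (14.0%) and the TATA box before Ces1g and Ces1h (12.4%). The other 6 motifs, found in 0.009 to 6.43% of all windows, were not found before a Ces1 or Ces2 gene. Such matches describe letters and not binding. The windows are chr8:93131284-93131533, chr8:93229620-93229869 and chr8:93337210-93337459, all on the minus strand.
Ces1c: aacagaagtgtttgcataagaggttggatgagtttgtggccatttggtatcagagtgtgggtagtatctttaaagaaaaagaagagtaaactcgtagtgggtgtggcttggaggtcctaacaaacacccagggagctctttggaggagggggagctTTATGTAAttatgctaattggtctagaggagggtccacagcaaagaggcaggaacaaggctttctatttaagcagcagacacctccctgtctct
Ces1e: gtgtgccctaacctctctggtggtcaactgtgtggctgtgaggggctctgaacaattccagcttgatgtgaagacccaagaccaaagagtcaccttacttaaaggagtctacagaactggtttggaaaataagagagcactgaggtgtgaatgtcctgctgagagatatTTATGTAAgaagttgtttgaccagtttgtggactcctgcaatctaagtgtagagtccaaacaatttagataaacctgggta
Ces1g: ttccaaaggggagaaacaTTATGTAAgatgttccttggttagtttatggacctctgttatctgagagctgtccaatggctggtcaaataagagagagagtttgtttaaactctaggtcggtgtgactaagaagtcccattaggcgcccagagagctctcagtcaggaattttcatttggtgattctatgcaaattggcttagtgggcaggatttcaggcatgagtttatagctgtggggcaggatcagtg

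In other lists of ester hydrolysis and fat export the counts are set beside the whole table, in which 0.763% of the tested genes passed limma's adjusted threshold and 9.81% had an unadjusted p under 0.05. Of 13 genes of triglyceride hydrolysis 1 rose and 0 fell in limma's fit over all genes (2 at an unadjusted p under 0.05), with a median change of 0.01. The riser was Lpl, the lipoprotein lipase of the vessel wall, at 4.19 ± 1.96 FPKM in KO and 0.107 ± 0.0592 FPKM in WT (SD, n = 4 each; limma adjusted p = 0.00913). The intracellular lipase Pnpla2 (12.6 ± 2.88 FPKM in KO, 11.7 ± 1.26 FPKM in WT) had a change of 0.07. Of 11 hydrolases of foreign esters and epoxides 0 passed in limma's fit (4 at an unadjusted p under 0.05), with 8 changes negative and a median of -0.27. Over all tested genes 6137 of 11266 changes were negative. Of those 4 hydrolases, Aadac, Ephx1 (change 0.71) and Esd (0.53) were higher in KO, while Cmbl (-0.40) was lower. Aadac, an arylacetamide deacetylase of the endoplasmic reticulum that shares substrates with carboxylesterases and is also in the first list, had the smallest p. It was at 101, 187, 135 and 182 FPKM in KO 1 to KO 4, against 79.0, 89.7, 90.6 and 89.3 FPKM in WT 1 to WT 4, so every KO library was above every WT library (log2 change 0.75, limma adjusted p = 0.212), an order that 3.05% of tested genes showed. Of 10 genes of VLDL assembly 0 passed in limma's fit (0 unadjusted; median 0.03), with Mttp, the triglyceride transfer protein, at 61.9 ± 12.9 FPKM in KO and 59.3 ± 7.86 FPKM in WT, and Apoe, which had the smallest p, at 7522 ± 1240.1 FPKM in KO and 6278 ± 1595 FPKM in WT (limma adjusted p = 0.804).

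Of 12 nuclear receptors and liver transcription factors that regulate drug and lipid genes 0 passed in limma's fit over all genes (3 unadjusted; median -0.09), beside the same 0.763 and 9.81% of all tested genes. Nr1i3, the constitutive androstane receptor that induces several hydrolases, was at 40.0 ± 24.5 FPKM in KO and 66.2 ± 11.9 FPKM in WT (change -0.85, limma adjusted p = 0.417), with KO 2 at 76.7 FPKM. Nr1i2, the pregnane X receptor, was at 16.0 ± 5.04 FPKM in KO and 16.2 ± 2.43 FPKM in WT, and Hnf4a at 86.3 ± 10.7 FPKM in KO and 91.4 ± 11.3 FPKM in WT. Esrra had the smallest p of the list, at 8.79 ± 1.37 FPKM in KO and 6.02 ± 0.279 FPKM in WT (limma adjusted p = 0.345). Besides Esrra and Nr1i3, Nr1h4 had an unadjusted p under 0.05 in limma's fit. It was at 20.1 ± 4.28 FPKM in KO and 29.8 ± 7.24 FPKM in WT (change -0.54, limma adjusted p = 0.491). Of 13 tested pericentral hepatocyte genes 2 fell and 0 rose (4 unadjusted; median -0.64). Of these 13 changes 11 were negative, beside 6137 of 11266 over all tested genes. All 4 with an unadjusted p under 0.05 in limma's fit were lower in KO, namely Tbx3, Oat, Cyp2e1 (change -1.94) and Cyp2c29 (-0.81). Tbx3, a transcription factor gene, was at 1.14 ± 0.457 FPKM in KO and 6.16 ± 1.196 FPKM in WT (limma adjusted p = 0.00649). Oat, ornithine aminotransferase, was at 16.5 ± 4.96 FPKM in KO and 85.6 ± 42.3 FPKM in WT (limma adjusted p = 0.0162; 0.0562 without KO 3, 0.0586 without KO 4, 0.0695 with no filter and 0.0876 with the replicate block). Of 16 periportal genes 1 rose and 0 fell (5 unadjusted; median 0.21), namely Aldh1b1, an aldehyde dehydrogenase, at 63.5 ± 13.7 FPKM in KO and 17.8 ± 3.85 FPKM in WT (limma adjusted p = 0.00649). Of the 16 periportal changes 14 were positive, beside 5129 of 11266 over all tested genes. The 5 periportal genes with an unadjusted p under 0.05 in limma's fit went both ways. Besides Aldh1b1, Sds (change 1.19) and Hsd17b13 (1.26) were higher in KO, while Cdh1 (-1.82) and Sult5a1 (-1.84) were lower. The part of zonation in the values of the Ces genes was not tested.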

How the data were processed

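The authors deposited 1 table of FPKM values for 35638 Ensembl genes with symbols. The submitters' processing notes list TopHat, edgeR and mm10 without their roles. The sources used here do not give the program that wrote the FPKM values, its annotation or whether strand was used. Nugen libraries were built from Trizol and miRNeasy RNA, per the labels' protocols. Columns were matched to samples by name.

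FPKM were taken as log2(FPKM + 1) for 11266 genes with a mean of at least 1 FPKM and compared with limma 3.58.1 in R 4.3.3 (genotype only, intensity trend, two-sided, Benjamini-Hochberg adjustment, threshold 0.05). Tests written for counts were not run. Depth was estimated from low values of genes with 1 transcript of at least 400 nt, of which 57.5 to 61.6% lay within 0.1 of a whole number of fragments (20% by chance). Multiples of these depths were also possible, and the lowest good match was taken.

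Gene IDs matched GENCODE M21 (GRCm38, the build mm10) in 99.39% of cases. Coding sequences were aligned with MAFFT 7.526. The members and lists were chosen with earlier results of these data known. Named genes were the members, the other Ces genes, Arid1a, up to 4 genes past the threshold in each list (or the one with the smallest p) and the 5 protein-coding genes that correlate best with Ces1f and with Ces2g; Pnpla2, Mttp, Nr1i3, Nr1i2 and Hnf4a were added after their values were seen. Genes named in the lists only for an unadjusted p under 0.05 in limma's fit also fall outside this rule. So do the markers Alb, Apoa1, Clec4f, Spp1, Sox9, Ptprc and Fabp2. Plots used Python 3.11.15 with matplotlib 3.10.9. One result is not reported here.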

Additional observations from a re-analysis of the deposited data

Results flagged for a closer look

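In groups of 4 libraries, values were singled out where the gap between the highest or lowest library and the nearest other, as a part of the group's range, exceeded Dixon's 95% limit, which chance gives in about 1 of 20 groups. The tested Ces genes, Arid1a and the sums and shares of Ces genes were scanned in KO and in WT. Some of the values below can therefore arise by chance. Ces1f was at 28.8 FPKM in KO 1 and between 5.79 and 8.10 FPKM in the other KO libraries. Its share of the summed Ces1 FPKM was 3.13% in KO 1 and between 0.510 and 0.731% in the others. Ces2c was at 2.75 FPKM in KO 1 and between 0.389 and 0.461 FPKM in the other KO libraries. Summed with Ces2d-ps, with which it shares sequence, it was at 3.95 FPKM in KO 1 and between 0.582 and 0.678 FPKM in the others. Ces1g was at 76.1 FPKM in WT 4 and between 42.1 and 45.4 FPKM in the other WT libraries. The Ces1f share and the sum with Ces2d-ps repeat the values of Ces1f and Ces2c in KO 1 and are not separate results. Over all tested genes KO 1 stood high of its group in 1.18% and WT 4 in 4.16%.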

How the results depend on the processing

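The alternatives changed the pseudocount (0.1 or 5 FPKM), the filter (none or 5 FPKM), the scaling (equal sums, quantiles or median ratios), limma's trend and weights, the replicate block and the libraries used. Over all genes 86 passed the threshold, against 54 with a pseudocount of 5 FPKM, 27 with a minimum of 5 FPKM and 35 (no KO 3) to 136 (no KO 2) when 1 library was left out. Among these, the count stayed within 1.5 times only without WT 4 (69). The replicate block left 24 genes and 1 Ces member, Ces2g. The numbers were not taken as pairs, since same-numbered libraries correlated at 0.096, -0.067, 0.015 and 0.250 and not each best with its own number. Of the members 2 passed; 1 did with no filter, with WT 4 and KO 2 left out together, and in 6 fits without 1 library (range 1 to 2). In each of these Ces1f was lost. Its limma adjusted p ran from 3.81e-04 to 0.0863 over 19 alternatives, with the change between -3.19 and -2.48 when 1 library was left out. Of the other Ces genes 0 passed (range 0 to 1 without 1 library; 1, Ces3a, without KO 2). The lists held 4 genes past the threshold, 2 with a minimum of 5 FPKM, 3 with no filter or with the replicate block (Oat lost in both) and 3 to 6 without 1 library. The minimum of 5 FPKM left Lpl and Tbx3 untested. Each of these passed in all 18 alternative fits that tested it. When 1 library was left out the change ran from -0.52 to -0.04 for Ces1d and from 0.04 to 0.45 for Ces1g. Small changes turned sign when 1 library was left out, with ranges of -0.23 to 0.017 for Ces1c (positive without WT 4 or KO 3), -0.22 to 0.070 for Ces2e (positive without KO 3) and -0.28 to 0.19 for Ces3b (positive without WT 3, WT 4 or KO 3). The log2 ratio of the summed Ces1 members was -0.18 (-0.34 to -0.06 without 1 library) and that of the Ces2 members 0.04 (-0.02 to 0.15). The KO minus WT difference of Arid1a ran from -2.98 to -1.52 FPKM without 1 library (exact permutation p = 0.0571, the smallest that 4 against 3 allows) and was -2.93 FPKM without WT 4 and KO 2 (p = 0.1, the smallest that 3 against 3 allows).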

Other observations

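The genes outside the family whose log2(FPKM + 1) ran most like that of Ces1f over the 8 libraries were Abcc3 (Pearson's r = 0.974), which encodes a transporter of conjugated bile acids and drugs, Lipg (0.971), which encodes endothelial lipase, Lsr (0.964), a lipoprotein receptor gene, Cyp3a11 (0.962), a drug-oxidising cytochrome P450, and Shf (0.951). Like Ces1f, Abcc3 was higher in KO 1 than in the other KO libraries, at 11.9, 3.87, 5.34 and 3.48 FPKM in KO 1 to KO 4, against 31.8 to 58.6 FPKM in WT libraries. Cyp3a11 was at 163, 109, 109 and 84.8 FPKM in KO 1 to KO 4, against 250.2 to 374 FPKM in WT libraries. The genes most like Ces2g were Sdr9c7 (r = 0.989), Rdh16 (0.987), which encodes a retinol dehydrogenase, Mbtps1 (0.984), the site 1 protease that activates SREBP factors, Fat1 (0.981) and Lclat1 (0.979), an acyltransferase of cardiolipin and lysophospholipids. Mbtps1 differed little in level, at 6.56 FPKM in KO and 7.87 FPKM in WT on average. These correlations are ranks of likeness only, since they were picked as the highest of all genes and rest in part on the same gap between the groups. With the group means removed, r was 0.743 to 0.85 for the 5 genes like Ces1f and 0.347 to 0.677 for those like Ces2g. The high value of Ces1f in KO 1 enters its correlations, so the height of Abcc3 in KO 1 is part of what picked it.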
